A study of Mus musculus with 6 samples.

Results

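Autotaxin (Enpp2), monoacylglycerol lipase (Mgll) and 8 further genes of lysophosphatidic acid (LPA) and sphingosine-1-phosphate (S1P) metabolism and sensing were examined in mouse Th9 cells, a CD4 T helper class named for its cytokine IL9. The 10 genes, found by symbol among 21233 in the deposited count and FPKM tables, are Enpp2, Mgll, Plpp1, Lpar2, Lpar5, Lpar6, S1pr1, S1pr4, Sphk1 and Sgpl1. Enpp2 and Mgll were chosen by their measured fall with sorafenib in these same libraries, and the other 8 were selected by pathway with earlier results of these data known. The libraries comprised 3 from Th9 cells treated with sorafenib, a kinase inhibitor that acts on RAF and on growth factor receptors, and 3 from untreated Th9 cells. The labels used here name no strain, dose or duration. They number the replicates without tying each to its own culture or animal, so the p-values below speak only of variation among these libraries, and that may be technical.

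LPA and S1P are small signalling lysophospholipids that act outside the cell on G protein-coupled receptors. Autotaxin is a secreted enzyme that makes LPA from lysophosphatidylcholine, and in lymphoid tissue LPA is known for promoting lymphocyte motility. S1P is made from sphingosine by sphingosine kinases and destroyed by S1P lyase, and the S1P gradient between lymph and tissue is best known for drawing T cells out of lymphoid organs through the receptor encoded by S1pr1.

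Totals were 36981476 to 38126521 counts per library, and 3 counts, the most that a count of 0 allows, equal 0.0766 to 0.0871 CPM, a limit on counting error only. CPM is the usual depth-scaled count, here with library totals corrected by TMM factors. CD4 T cell markers were abundant, with Cd4 at 496 ± 10.7 CPM in sorafenib and 476 ± 35.9 CPM in control cells (mean ± SD, n = 3 each, as throughout). Il9 was higher with sorafenib (266 ± 15.4 CPM, against 192 ± 18.8 CPM in control cells, adjusted p = 0.00357 by edgeR), and Cd3e, Cd3g, Cd2 and Cd28 were lower, among 8 such markers tested. Control replicate 2 lay farthest from its group mean over all genes, at a root mean square log2 distance of 0.346, against 0.208 to 0.272 for the other 5 libraries.

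Promoter sequences are shown first for 4 genes whose transcripts differed between the groups. RefSeq's promoter table (build GRCm38.p6, 250 bases before to 50 after each start) held 7 of the 10 genes. The 10 motifs searched on both strands were the AP-1 element TGANTCA, the ETS core CCGGAA, the NFAT core GGAAAA, the STAT element TTCNNNGAA, the CRE element TGACGTCA, the E-box CACGTG, the TATA box TATAAA, the GC box GGGCGG, the KLF core CACCC and the hypoxia element ACGTG. The hypoxia element lies within the E-box, so every E-box match is also a hypoxia element match. Capitals mark every match, and a match is only a run of letters and was not tested for function. Mgll (chr6:88724162-88724461, plus strand, the first of 2 listed starts) is the promoter of a gene that was lower with sorafenib. Lpar6 (chr14:73237641-73237940, plus strand), Sphk1 (chr11:116530850-116531149 and chr11:116531587-116531886, plus strand, 2 of 5 listed starts) and Sgpl1 (chr10:61147635-61147934, minus strand) are those of the genes that were higher. The second Sphk1 start was chosen after its matches were seen.
Mgll: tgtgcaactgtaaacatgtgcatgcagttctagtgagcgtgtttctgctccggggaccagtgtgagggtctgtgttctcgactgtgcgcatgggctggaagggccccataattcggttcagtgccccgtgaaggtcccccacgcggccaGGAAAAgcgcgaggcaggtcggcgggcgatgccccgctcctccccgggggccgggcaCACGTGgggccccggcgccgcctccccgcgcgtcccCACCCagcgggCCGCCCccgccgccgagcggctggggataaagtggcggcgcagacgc
Lpar6: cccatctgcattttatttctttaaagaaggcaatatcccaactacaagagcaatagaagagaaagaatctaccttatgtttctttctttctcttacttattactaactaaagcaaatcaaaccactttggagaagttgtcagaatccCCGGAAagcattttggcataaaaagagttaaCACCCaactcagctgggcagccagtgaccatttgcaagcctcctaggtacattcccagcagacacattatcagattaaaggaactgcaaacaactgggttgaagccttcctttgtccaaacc
Sphk1, first start: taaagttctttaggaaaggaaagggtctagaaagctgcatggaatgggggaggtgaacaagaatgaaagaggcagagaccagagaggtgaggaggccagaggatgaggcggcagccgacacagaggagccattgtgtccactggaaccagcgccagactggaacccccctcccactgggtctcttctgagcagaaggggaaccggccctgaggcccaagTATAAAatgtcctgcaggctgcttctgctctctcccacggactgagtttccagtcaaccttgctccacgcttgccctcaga
Sphk1, second start: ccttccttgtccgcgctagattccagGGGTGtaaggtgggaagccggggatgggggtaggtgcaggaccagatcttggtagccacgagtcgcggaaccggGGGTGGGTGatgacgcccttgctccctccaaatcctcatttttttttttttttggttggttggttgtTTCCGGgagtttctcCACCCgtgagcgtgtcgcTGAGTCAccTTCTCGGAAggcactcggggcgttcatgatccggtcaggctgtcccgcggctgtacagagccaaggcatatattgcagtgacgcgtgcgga
Sgpl1: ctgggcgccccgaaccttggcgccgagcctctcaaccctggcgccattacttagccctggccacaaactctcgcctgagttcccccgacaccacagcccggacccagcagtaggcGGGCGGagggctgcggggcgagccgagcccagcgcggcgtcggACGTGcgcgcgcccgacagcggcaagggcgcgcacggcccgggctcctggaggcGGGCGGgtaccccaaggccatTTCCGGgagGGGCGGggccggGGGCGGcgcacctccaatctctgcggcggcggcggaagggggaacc

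The ETS core was found in the promoters of Lpar6 (at -103 from the start), Sgpl1 (at -17) and the second start of Sphk1 (at -83), in the first of 2 listed starts of Lpar5 (at -250), and in 14.9% of 32851 promoters of the same length. The same Sphk1 site lay at -157 from the next listed start. The ETS core was not found in the listed windows of Mgll, Lpar2 or S1pr4, in the second Lpar5 start or in the other Sphk1 starts. Its presence thus did not separate genes that were higher from the rest, and for Sphk1 it depended on the start shown. The second Sphk1 start also held an AP-1 element at -50 (in 7.81% of promoters) and a STAT element at -41 (8.3%), while the first held only a TATA box at -31 (13.6%) among the 10 motifs. The first Mgll start held an E-box at -44 (7.15%), an NFAT core at -101 (23.4%), a GC box (35.7%) and a KLF core (57.5%). The second Mgll start held only a GC box at -121 and a hypoxia element at -158. E-boxes were also found in Lpar2, which was not called, and in Sphk1 starts not shown. An AP-1 element was found in Lpar2 too, at -221. Sgpl1 held 4 GC boxes and a hypoxia element at -92 (19.6%).

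Enpp2 and Mgll, the genes whose falls chose the set, are described here without a test. Enpp2 had 18.9, 19.7 and 18.7 CPM in the 3 sorafenib libraries, against 99.9, 97.8 and 102 CPM in the 3 control libraries. The groups lay far apart and the replicates close together, with coefficients of variation of 2.77% in sorafenib and 1.89% in control cells. Its level was 5.22-fold lower with sorafenib (log2 fold change -2.38), which ranked 47 among the falls of 13255 tested genes. Mgll, whose enzyme hydrolyses monoacylglycerols such as the endocannabinoid 2-arachidonoylglycerol, had 22.7, 25.4 and 23.2 CPM in sorafenib libraries, against 68.3, 62.3 and 65.9 CPM in control libraries. Each sorafenib library was below each control library, and the level was 2.76-fold lower (log2 fold change -1.46), ranked 176 among the falls. Both ranks restate how Enpp2 and Mgll were chosen. In these bulk libraries fewer cells expressing a gene and less RNA per cell cannot be told apart.

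Fibroblasts, adipocytes and endothelium are known sources of autotaxin, and their listed markers, apart from the endothelial marker Pecam1, were low. Fibroblast and adipocyte markers (6 in the table, among them Col1a1, Pdgfra, Dcn and Adipoq) summed to 1.23 to 1.42 CPM in sorafenib and 0.465 to 1.18 CPM in control libraries. Of the 4 endothelial markers in the table, Cdh5 and Tek were below 0.1 CPM on average in both groups. Kdr averaged 0.413 CPM in sorafenib and 0.988 CPM in control cells and was not called. Pecam1, which T cells also express, was 27.1 ± 0.759 CPM in sorafenib and 50.8 ± 1.07 CPM in control cells. It was called lower (adjusted p = 2.7e-05 by edgeR), and the groups did not overlap. Neutrophil markers summed to 2.58 to 2.96 CPM in sorafenib and 9.35 to 11.3 CPM in control libraries. Of 3 tested, Ly6g and Cxcr2 were lower and Mpo was not called. Ly6g had 1, 2 and 0 counts in sorafenib libraries, against 125, 120 and 125 in control libraries. Epithelial markers summed to 1.67 to 2.12 CPM in sorafenib and 4.8 to 7.26 CPM in control libraries, with both tested lower. B cell markers summed to 31.3 to 33.8 CPM in sorafenib and 26.5 to 33.04 CPM in control libraries, with 4 of 5 tested higher and Ebf1 lower. CD8 T and NK cell markers summed to 8.91 to 11.1 CPM in sorafenib and 6.17 to 7.09 CPM in control libraries, with Cd8b1 higher (9.4 ± 1.2 CPM in sorafenib, 6.37 ± 0.38 CPM in control, adjusted p = 0.014 by edgeR) of 2 tested. The most abundant macrophage and platelet markers were Cd68 (6.46 ± 1.03 CPM in sorafenib, 6.72 ± 1.76 CPM in control) and Itga2b (5.85 ± 0.448 CPM in sorafenib, 6 ± 0.861 CPM in control), whose groups overlapped. The part of these lists in the values of the 10 genes was not tested.

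Of the other 8 genes, 3 were called, each of them higher with sorafenib: Lpar6, Sphk1 and Sgpl1. The test was edgeR's quasi-likelihood F test across all tested genes with Benjamini-Hochberg adjustment and a threshold of 0.05, and all 10 genes passed its filter on low counts. Across all 13255 tested genes 17.9% were called, 8.51% as higher and 9.43% as lower. With counts scaled by total only, 1496 of 2322 called genes were higher, and on filtered log2(FPKM + 1) values 1398 of 2142, against 1128 of 2378 with TMM. Of the 8, only 1 was called higher without control replicate 1, control replicate 3 or sorafenib replicate 1, and it was Lpar6 each time. The median log2 fold change of the 8 was 0.25, beside -0.01 over all tested genes. The sorafenib and control libraries did not overlap for 5 of the 8, and for 36.3% of all tested genes. Since the set was assembled with these results known, nothing is read from the shares.

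**Figure D1:**
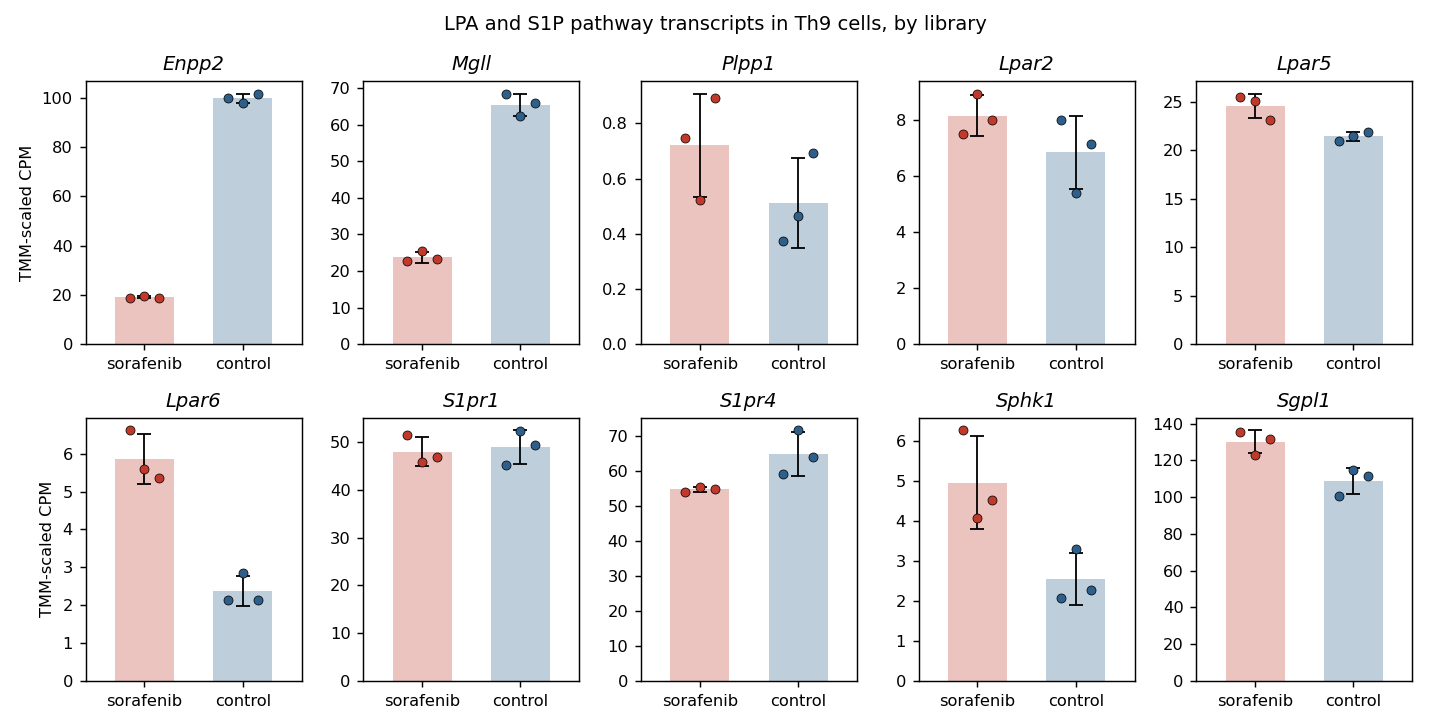
TMM-scaled CPM of the 10 genes in each library, with sorafenib left of control in every panel and each y axis starting at 0; points are libraries, bars are means and error bars are SD over 3 libraries. Enpp2 (19.1 against 99.8 CPM) and Mgll (23.8 against 65.5 CPM) are lower with sorafenib, Lpar6 and Sphk1 are higher at low levels, and the S1pr1 libraries of the 2 groups overlap.

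Among the LPA receptors, Lpar6 rose, while Lpar2 and Lpar5 did not pass the test. Lpar6, a receptor of the P2Y-like class known in human for mutations that cause hair loss, had 6.62, 5.61 and 5.36 CPM in sorafenib libraries, against 2.14, 2.85 and 2.13 CPM in control libraries. The lowest sorafenib library was above the highest control library, and the rise was 2.47-fold (log2 fold change 1.31 ± 0.18 SE, adjusted p = 0.000768 by edgeR). In every alternative fit Lpar6 was called higher, with adjusted p up to 0.00896. Lpar6 overlaps the tumour suppressor gene Rb1 in the RefSeq annotation, and without a stated strand setting reads from the 2 genes cannot be told apart where they overlap. Rb1 itself was 104 ± 7.22 CPM in sorafenib and 101 ± 8.21 CPM in control cells (log2 fold change 0.04, 95% interval -0.14 to 0.23).

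Lpar5, also of the P2Y-like class and known in mouse to restrain T cell receptor signalling in CD8 T cells, had 25.5, 25.1 and 23.2 CPM in sorafenib libraries, against 21.0, 21.5 and 21.9 CPM in control libraries. The groups did not overlap, but the difference missed the threshold (log2 fold change 0.20 ± 0.08 SE, 95% interval 0.02 to 0.38, adjusted p = 0.13 by edgeR). Lpar2, a receptor of the EDG class that S1P receptors also belong to, had 7.52, 8.95 and 8.02 CPM in sorafenib libraries, against 7.99, 5.4 and 7.14 CPM in control libraries. The groups overlapped, with control replicate 2 the lowest of all 6 libraries (log2 fold change 0.25 ± 0.16 SE, 95% interval -0.10 to 0.60, adjusted p = 0.314). The other 3 LPA receptor genes, Lpar1, Lpar3 and Lpar4, had at most 5 counts in any library and were not tested.

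Among the S1P receptors, neither S1pr1 nor S1pr4 passed the test. S1pr1, the exit receptor, had 51.5, 45.8 and 46.9 CPM in sorafenib libraries, against 45.3, 52.3 and 49.4 CPM in control libraries. The groups overlapped throughout (log2 fold change -0.03 ± 0.08 SE, adjusted p = 0.864 by edgeR), and the 95% interval of -0.21 to 0.16 bounds the difference in either direction. S1pr4, a receptor found mainly on blood and lymphoid cells, had 54.1, 55.6 and 54.9 CPM in sorafenib libraries, against 59.3, 71.8 and 64.1 CPM in control libraries. All sorafenib libraries were below all control libraries, with control replicate 2 the highest. The difference missed the threshold (log2 fold change -0.25 ± 0.08 SE, 95% interval -0.43 to -0.07, adjusted p = 0.0628 by edgeR), but S1pr4 was called lower without control replicate 1 (adjusted p = 0.0272), without control replicate 2 (0.0483) and by DESeq2 (0.0495).

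S1pr3, an S1P receptor outside the 10 genes, fell. It had 3.81, 5.24 and 3.45 CPM in sorafenib libraries, against 9.52, 9.9 and 9.51 CPM in control libraries. Every sorafenib library was below every control library, and the fall was 2.31-fold (log2 fold change -1.21 ± 0.16 SE, adjusted p = 0.000684 by edgeR). It was called lower in every alternative fit, with adjusted p up to 0.0143. S1pr2 had 15.7 ± 0.878 CPM in sorafenib and 16.3 ± 1.25 CPM in control cells (log2 fold change -0.05, 95% interval -0.27 to 0.16). S1pr5 had at most 7 counts in any library and was not tested.

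**Figure D2:**
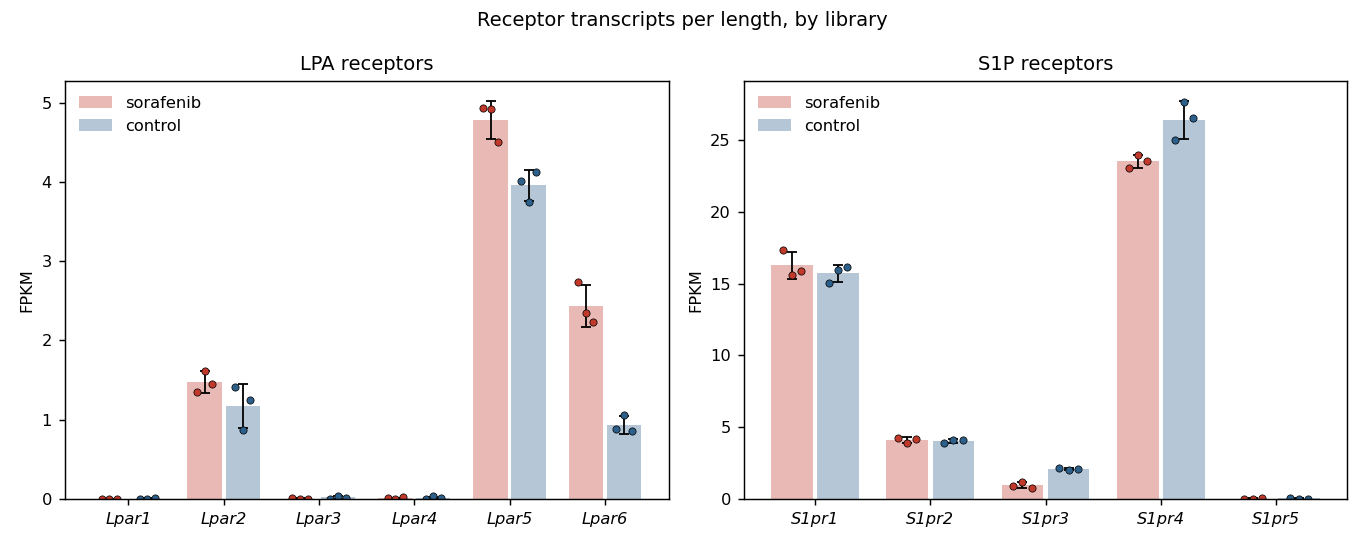
FPKM of the 6 LPA receptor genes and the 5 S1P receptor genes, with sorafenib left of control for each gene; points are libraries, bars are means and error bars are SD over 3 libraries. Lpar5 is the highest LPA receptor in both groups, Lpar6 is above Lpar2 in all 3 sorafenib libraries and, among control libraries, only in replicate 2, and S1pr4 and S1pr1 make up most of the S1P receptor transcript.

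FPKM, which divides by gene length, allowed levels to be compared between genes. The deposited FPKM are scaled by column total without TMM factors, unlike the CPM above. Scaling counts by total only gave a median log2 fold change of 0.07 over all tested genes, against -0.01 with TMM, so sums compared between groups carry that shift. Summed over the 6 LPA receptors the FPKM level was 8.71 ± 0.436 in sorafenib and 6.1 ± 0.301 in control cells. Lpar5 made up 55.0 ± 0.37% of this sum in sorafenib and 64.9 ± 1.17% in control cells, and Lpar6 made up 28.0 ± 2.06% in sorafenib and 15.4 ± 2.68% in control cells. The shares of both genes did not overlap between the groups, while those of Lpar2 (16.9 ± 1.77% in sorafenib, 19.2 ± 3.69% in control) did. For the 5 S1P receptors the summed FPKM level was 44.9 ± 0.56 in sorafenib and 48.3 ± 1.88 in control cells. S1pr4 made up 52.4 ± 1.59% of it in sorafenib and 54.7 ± 0.793% in control cells, S1pr1 made up 36.3 ± 1.64% in sorafenib and 32.6 ± 0.503% in control cells, and S1pr3 made up 2.13 ± 0.501% in sorafenib and 4.34 ± 0.276% in control cells. These shares were computed after the gene values were seen and carry no test, since an exact permutation test of 3 against 3 libraries cannot go below a two-sided p of 0.1.

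Of the enzymes that make and remove S1P, Sphk1 and Sgpl1 both rose. Sphk1, the sphingosine kinase known to be induced by growth factor signalling, had 6.26, 4.07 and 4.52 CPM in sorafenib libraries, against 2.06, 3.28 and 2.27 CPM in control libraries. The groups did not overlap, but replicates varied by 23.4% (sorafenib) and 25.7% (control), and the fold was 1.95 (log2 fold change 0.97 ± 0.23 SE, adjusted p = 0.0155 by edgeR). With one library fewer Sphk1 missed the threshold in 3 cases, the omission of control replicate 1 (adjusted p = 0.0529) or 3 (0.0664) or of sorafenib replicate 1 (0.0903), and it did so too on unfiltered log2(FPKM + 1) values (0.0595). Sphk2, the other kinase, was 34.3 ± 1.47 CPM in sorafenib and 36.3 ± 0.785 CPM in control cells (log2 fold change -0.08, 95% interval -0.25 to 0.08). On the FPKM scale the ratio of Sphk1 to Sphk2 was 0.145 ± 0.0295 in sorafenib and 0.0703 ± 0.0177 in control cells, a ratio computed after the values were seen, and Sphk2 was the more abundant kinase transcript in both groups.

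Sgpl1, the lyase that irreversibly breaks S1P down, had 135, 123 and 132 CPM in sorafenib libraries, against 101, 115 and 111 CPM in control libraries. Its lowest sorafenib library was above its highest control library, and the rise was 1.19-fold (log2 fold change 0.26 ± 0.07 SE, adjusted p = 0.0367 by edgeR). That call depended on the libraries: it was lost without control replicate 1 (adjusted p = 0.0939) or 3 (0.0755) and without sorafenib replicate 1 (0.161), 2 (0.0546) or 3 (0.157), and held without control replicate 2 (0.000993). Plpp1, a phosphatase that removes phosphate from LPA and S1P, was the lowest of the 10, with 29, 20 and 35 counts in sorafenib libraries, against 14, 16 and 26 counts in control libraries. The groups overlapped (0.721 ± 0.187 CPM in sorafenib, 0.511 ± 0.164 CPM in control, log2 fold change 0.49, 95% interval -0.40 to 1.38, adjusted p = 0.453). Plpp1 overlaps the RNA helicase gene Mtrex in the RefSeq annotation, and reads from the overlap cannot be told apart. Mtrex was 83.8 ± 0.871 CPM in sorafenib and 80.2 ± 6.44 CPM in control cells (log2 fold change 0.06, 95% interval -0.10 to 0.23).

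**Figure D3:**
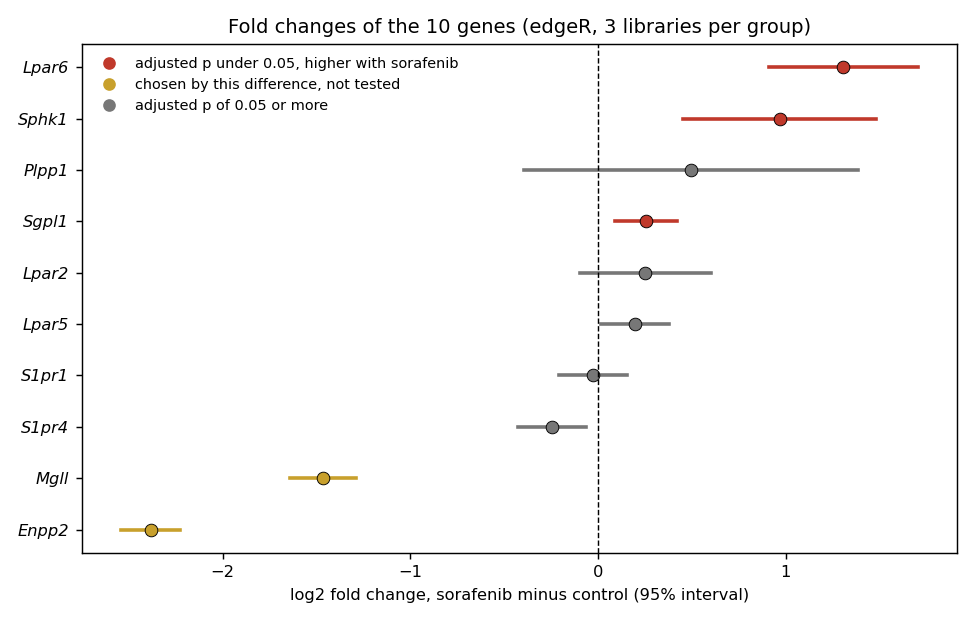
Log2 fold changes (sorafenib minus control) of the 10 genes on the x axis, with 95% intervals from edgeR as horizontal lines and colours for genes chosen by this difference, genes past an adjusted p of 0.05 and genes short of it. Enpp2 (-2.38) and Mgll (-1.46) lie far to the left, Lpar6 (1.31) and Sphk1 (0.97) to the right, and the interval of S1pr1 spans 0 closely. The intervals drawn for Enpp2 and Mgll do not allow for their choice by this difference and are not a test.

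The order of the 10 genes by FPKM differed between the groups. In sorafenib cells Sgpl1 was highest at 31.3 ± 1.34 FPKM, followed by S1pr4 (23.5 ± 0.459) and S1pr1 (16.3 ± 0.928). Enpp2 (4.91 ± 0.159), Lpar5 (4.79 ± 0.238) and Mgll (4.69 ± 0.314) came next and overlapped one another over the libraries, then Lpar6 (2.44 ± 0.264), Lpar2 (1.47 ± 0.139), Sphk1 (1.19 ± 0.27) and Plpp1 (0.419 ± 0.108), of which Lpar2 and Sphk1 overlapped. In control cells S1pr4 (26.4 ± 1.32 FPKM), Sgpl1 (24.8 ± 1.02) and Enpp2 (24.3 ± 1.54) led and each overlapped its neighbour. S1pr1 (15.7 ± 0.575), Mgll (12.3 ± 1.13) and Lpar5 (3.96 ± 0.193) followed without overlap, then Lpar2 (1.18 ± 0.276) and Lpar6 (0.932 ± 0.113), which overlapped, and last Sphk1 (0.573 ± 0.118) and Plpp1 (0.282 ± 0.094). Enpp2 thus stood among the 3 most abundant of these transcripts in control cells and at about the level of Lpar5 and Mgll in sorafenib cells.

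The genes most like Enpp2 and Mgll over the 6 libraries were named by a fixed measure, the mean absolute difference of log2 values relative to the control mean. It was computed over the 8806 genes whose average log2 CPM reached 3. Nearest to Enpp2 were Tgm1 (a mean difference of 0.0985 log2 units), Il12rb2 (0.11) and Pamr1 (0.15), of which Tgm1 was 4.91-fold, Il12rb2 5.14-fold and Pamr1 4.73-fold lower with sorafenib. Nearest to Mgll were Slamf7 (0.045), Basp1 (0.0507) and Tgm2 (0.0614), of which Slamf7 was 2.87-fold, Basp1 2.76-fold and Tgm2 2.55-fold lower with sorafenib. These 6 are given as a description of likeness only.

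Relatives of these genes were then counted over 12 functional lists, chosen by function but with earlier results of these data known. Without the 10 members the lists held 113 genes, of which 108 were in the table and 92 were tested. Of the 92, 9 were higher and 10 lower (20.7%, beside the 17.9% of all tested genes), with a median log2 fold change of -0.06. The same 17.9% stands beside each list below. The lists are short, so no single list's count is read as a result. The count of 19 was 35 with control replicate 2 omitted, 11 with sorafenib replicate 1 omitted and 9 with sorafenib replicate 3 omitted. Calls among all tested genes varied too, from 1243 to 4325 with a library left out. List counts under such omissions, here and below, are thus not read as traits of the lists.

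**Figure D4:**
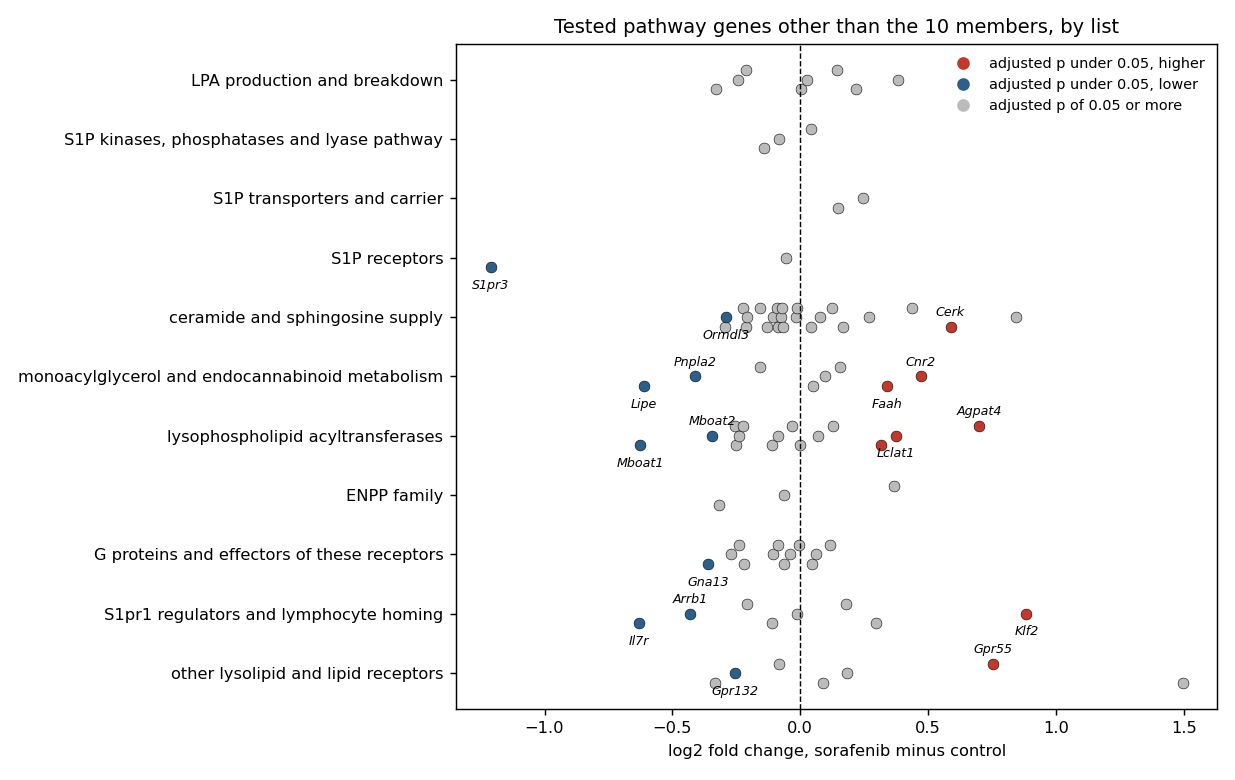
Log2 fold changes (sorafenib minus control) of tested genes other than the 10 members on the x axis, by functional list on the y axis (1 gene not drawn); points are genes, red and blue mark an adjusted p under 0.05 and grey the rest, and the vertical offset within a list has no meaning. S1pr3 (-1.21) is the farthest left, and named genes of lipase, acyltransferase and homing lists lie on both sides of 0.

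The enzymes that make or break down LPA beside Enpp2 and Plpp1 held no call. By edgeR 0 of 8 tested were called, beside 17.9% of all tested genes. Of the 8, 1 had an unadjusted p under 0.05, and 0 were called by DESeq2 or limma-voom. The most abundant were Acp6, a mitochondrial LPA phosphatase (44.5 ± 1.27 CPM in sorafenib, 52.7 ± 5.79 CPM in control, adjusted p = 0.0872), and Plpp2, a relative of Plpp1 (33.2 ± 2.14 CPM in sorafenib, 38.5 ± 4.31 CPM in control, adjusted p = 0.163). Acp6 was called lower without control replicate 1 (adjusted p = 0.0407). Of the Enpp2 paralogs, 0 of 3 tested were called by edgeR, DESeq2 or limma-voom, and 1 had an unadjusted p under 0.05. Enpp1, which hydrolyses extracellular nucleotides, was 9.92 ± 0.414 CPM in sorafenib and 12.4 ± 0.749 CPM in control cells (adjusted p = 0.058), and was called lower without control replicate 2 (0.0319). Enpp4 was 9.6 ± 1.05 CPM in sorafenib and 10.02 ± 0.253 CPM in control cells (adjusted p = 0.768).

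Beyond the members, calls on the S1P side are given beside the 17.9% called among all tested genes. Of Sphk2, Sgpp1 and Aldh3a2, 0 were called by edgeR, DESeq2 or limma-voom and 0 had an unadjusted p under 0.05. Sgpp1, an S1P phosphatase, was 86.1 ± 3.91 CPM in sorafenib and 94.9 ± 3.05 CPM in control cells (log2 fold change -0.14, 95% interval -0.29 to 0.01). Aldh3a2, which oxidises the aldehyde that the lyase releases, was 36.03 ± 0.169 CPM in sorafenib and 35.04 ± 0.539 CPM in control cells (95% interval -0.12 to 0.20). Of the transporters tested, Abcc1 and Mfsd2b, 0 were called by the same 3 tools and 0 had an unadjusted p under 0.05. Abcc1 was 118 ± 5.43 CPM in sorafenib and 107 ± 9.18 CPM in control cells. Mfsd2b was 0.748 ± 0.269 CPM in sorafenib and 0.629 ± 0.115 CPM in control cells. Among ceramide and sphingosine genes, 1 rose and 1 fell of 23 tested (median log2 fold change -0.07). Cerk, the ceramide kinase, rose 1.5-fold, to 26.8 ± 1.93 CPM in sorafenib, against 17.8 ± 1.32 CPM in control cells (adjusted p = 0.00187). Ormdl3, which restrains sphingolipid synthesis, was called lower by a narrow margin (65.3 ± 4.71 CPM in sorafenib, 79.8 ± 8.12 CPM in control, adjusted p = 0.0488), a call lost in 11 of 17 alternative fits (adjusted p up to 0.224), among them each omission of a library other than control replicate 2. The count of 2 became 4 without control replicate 2, and 1 without control replicate 3 or any 1 sorafenib replicate.

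Of 8 tested genes of monoacylglycerol and endocannabinoid metabolism beside Mgll, 2 were higher and 2 lower. Among all tested genes 8.51% were higher and 9.43% lower. Lipe, the hormone-sensitive lipase that acts upstream of Mgll in fat breakdown, fell 1.53-fold, to 35 ± 0.271 CPM in sorafenib, against 53.5 ± 3.05 CPM in control cells (adjusted p = 0.000357). Pnpla2, the adipose triglyceride lipase, fell 1.33-fold (39.01 ± 1.63 CPM in sorafenib, 51.9 ± 6.66 CPM in control, adjusted p = 0.014), missing the threshold in 8 of 17 alternative fits, among them the omission of control replicate 3 (0.0581) or sorafenib replicate 1 (0.0503), 2 (0.0736) or 3 (0.0724). Cnr2, the cannabinoid receptor of immune cells, rose 1.39-fold (14.4 ± 0.524 CPM in sorafenib, 10.4 ± 0.299 CPM in control, adjusted p = 0.00663), and was lost only without sorafenib replicate 3 (adjusted p = 0.0511) among the 17. Faah, which degrades anandamide, rose 1.26-fold (67.8 ± 6.83 CPM in sorafenib, 53.6 ± 1.72 CPM in control, adjusted p = 0.0194), missing the threshold when control replicate 3 (0.0639) or sorafenib replicate 1 (0.111) or 3 (0.103) was omitted, and on unfiltered log2(FPKM + 1) values (0.0611). The list's count of 4 was 2 without control replicate 3 or sorafenib replicate 1, and 1 without sorafenib replicate 3. Abhd6 and Abhd12, the other monoacylglycerol hydrolases of the list, were tested and not called.

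Lysophospholipid acyltransferases, which turn lysophospholipids back into phospholipids, were called in 5 of 15 tested, 3 higher and 2 lower, beside 17.9% of all tested genes. Agpat4, an LPA acyltransferase, rose 1.62-fold, to 29.4 ± 1.67 CPM in sorafenib, against 18.1 ± 1.84 CPM in control cells (adjusted p = 0.000825). Mboat1 fell 1.54-fold, to 8.91 ± 0.647 CPM in sorafenib, against 13.7 ± 0.659 CPM in control cells (adjusted p = 0.00255). Lclat1 rose 1.3-fold (25.4 ± 0.742 CPM in sorafenib, 19.6 ± 0.594 CPM in control, adjusted p = 0.00929), a call lost without sorafenib replicate 3 (0.0532). Mboat2 fell 1.27-fold (41.5 ± 1.66 CPM in sorafenib, 52.6 ± 3.07 CPM in control, adjusted p = 0.0107), a call lost without sorafenib replicate 1 (0.065) or 3 (0.0715) and in all 3 FPKM fits (up to 0.134). The count of 5 was 9 with control replicate 2 omitted, 3 with sorafenib replicate 1 omitted and 2 with sorafenib replicate 3 omitted.

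Downstream of the receptors, 1 of 12 genes for G proteins and their effectors was called, beside 17.9% of all tested genes. Gna13, a G protein subunit that couples to LPA and S1P receptors, fell 1.28-fold (769 ± 14.8 CPM in sorafenib, 987 ± 57.9 CPM in control, adjusted p = 0.0127), a call lost without sorafenib replicate 1 (0.0797), 2 (0.0614) or 3 (0.0771) and on unfiltered log2(FPKM + 1) values (0.0939), while 5 genes of this list were called without control replicate 2. Of 9 genes that regulate S1pr1 or accompany it in lymphocyte homing, 2 rose and 2 fell, beside 8.51% and 9.43% of all tested genes. Without control replicate 2, 7 of the 9 were called. Klf2, a transcription factor known to activate S1pr1, rose 1.85-fold, to 15 ± 0.697 CPM in sorafenib, against 8.12 ± 0.0438 CPM in control cells (adjusted p = 0.000218). S1pr1 did not pass the test, its interval ending at 0.16 on the log2 scale. Il7r fell 1.55-fold, to 104 ± 1.96 CPM in sorafenib, against 161 ± 5.19 CPM in control cells (adjusted p = 0.000126). Arrb1, a β-arrestin that desensitises such receptors, fell 1.35-fold (372 ± 18.9 CPM in sorafenib, 502 ± 52.2 CPM in control, adjusted p = 0.00827), a call lost without sorafenib replicate 1 (0.061) or 3 (0.054) and in all 3 FPKM fits (up to 0.151).

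Receptors for other lysolipids and lipids were called in 2 of 7 tested, beside 17.9% of all tested genes. Gpr55, a receptor for lysophosphatidylinositol, rose 1.69-fold, to 8.52 ± 0.649 CPM in sorafenib, against 5.05 ± 0.595 CPM in control cells (adjusted p = 0.00375). Gpr132, a receptor linked to lysophosphatidylcholine, was called lower (191 ± 4.54 CPM in sorafenib, 228 ± 16.4 CPM in control, adjusted p = 0.0337), a call lost in 11 of 17 alternative fits (adjusted p up to 0.345), among them each omission of a library other than control replicate 2. Without control replicate 3 or any 1 sorafenib replicate, 1 of the 7 was called.

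**Figure D5:**
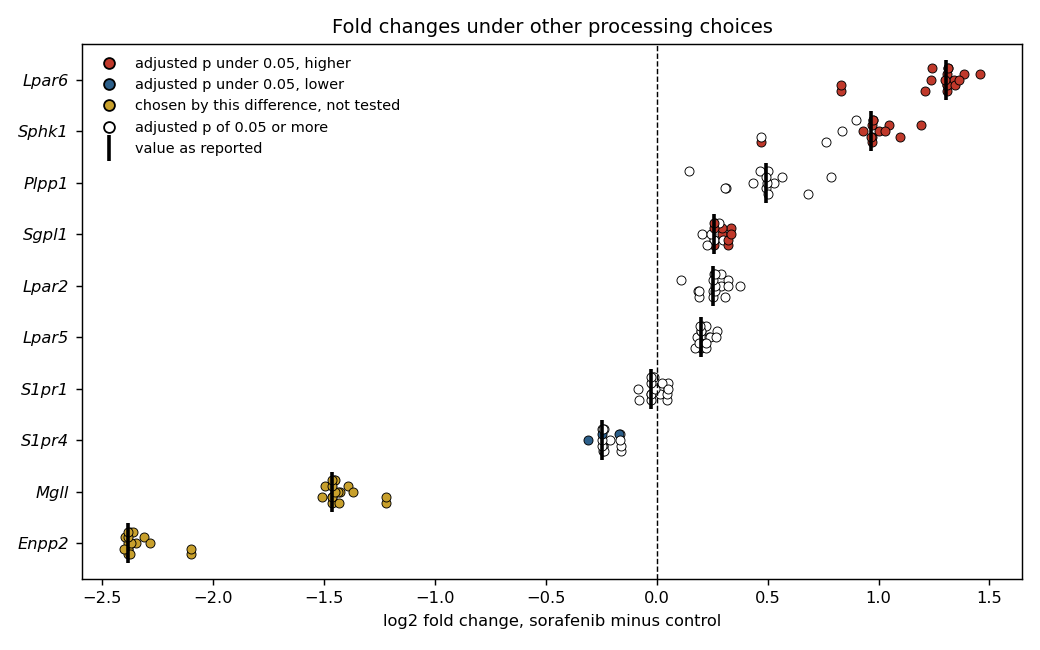
Log2 fold changes (sorafenib minus control) of the 10 genes under the alternative scalings, filters, tools and left-out libraries; each point is 1 alternative, red or blue where the adjusted p was under 0.05, open where it was not and ochre for the 2 genes chosen by this difference; vertical offsets have no meaning, and the black mark is the value as reported. Lpar6 is red throughout, Sphk1 and Sgpl1 are open in some alternatives, and S1pr1 lies on both sides of 0.

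Across the alternatives Enpp2 kept a log2 fold change between -2.4 and -2.10, Mgll between -1.51 and -1.22 and Lpar6 between 0.83 and 1.46, the values nearest to 0 coming from log2(FPKM + 1), which understates changes of low genes. The log2 fold change of S1pr1 lay between -0.08 and 0.05, with its sign set by the scaling or the libraries used, and Lpar2, Lpar5 and Plpp1 kept a positive sign without passing the test in any alternative fit.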

How the data were processed

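Per the labels' protocols, total RNA of Th9 cells was extracted with TRIzol and made into libraries with a VAHTS Universal V5 kit. The authors deposited raw whole-number counts per gene and a table of FPKM values. The submitters' processing notes name fastp, HISAT2, HTSeq, R 3.2.0, DESeq2 and GRCm39; which tool did which step, the strand setting and the treatment of multiply matching reads is information not given in the sources used here. In the deposited FPKM table values matched count over length and column total within 0.1% for 100% of 13117 genes with at least 20 counts.

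Counts of 3 sorafenib and 3 control libraries, grouped by title, were filtered with filterByExpr (13255 of 21233 genes left), scaled with TMM and tested with edgeR 4.0.16 in R 4.3.3 (quasi-likelihood F test, robust, group only, 4 residual degrees of freedom, common biological coefficient of variation 10.9%), with Benjamini-Hochberg adjustment over all tested genes. Log2 fold changes are sorafenib minus control, with standard errors derived from F. Alternatives were other scalings and filters, a replicate block, omission of single libraries, DESeq2 1.42.0, limma-voom and limma-trend on FPKM (limma 3.58.1), and stricter thresholds. Named relatives are up to 4 called genes per list, or the 2 most abundant where none was called; Sphk2, S1pr2, Abhd6, Abhd12 and the receptors with few counts were added after their values were seen. 1 gene of the lists is counted but not reported here by name or drawn. The members and lists were chosen with earlier results of these data known.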

Additional observations from a re-analysis of the deposited data

How the results depend on the processing

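Among the 8 genes other than Enpp2 and Mgll, 113 of 133 gene and alternative pairs kept the direction and the side of the threshold, 10 lost a call (Sphk1 and Sgpl1), 3 gained one (S1pr4) and 7 changed sign (S1pr1). S1pr1 turned positive with upper-quartile factors (0.0095), total counts only (0.0512), without control replicate 2 or sorafenib replicate 2 (leave-one-out range -0.0825 to 0.0248) and on log2(FPKM + 1), with a filter or without (0.0473 each), and log2(FPKM + 0.1) (0.0499); the cause was not tested. Among 26 named relatives, 381 of 439 pairs were unchanged, 50 lost a call, 2 gained one and 6 changed sign. Enpp4 turned positive with total counts only (0.0127), on log2(FPKM + 1), with a filter or without (0.0068 each), on log2(FPKM + 0.1) (0.0086) and without sorafenib replicate 1 (leave-one-out range -0.144 to 0.0142). Mfsd2b ranged between -0.0838 and 0.416 with a library left out, and Rb1 between -0.0179 and 0.105. Total counts only moved the median log2 fold change of all tested genes to 0.07, against -0.01 with TMM.

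Called genes numbered 2378 in all, 5 of the 10 members and 19 of the relatives. Each member count includes Enpp2 and Mgll, whose falls chose the set. The rest of it, 3 of the other 8, comes from genes also chosen with earlier results known, so nothing is read from the count. With a library left out the calls in all, among members and among relatives were 1243 to 4325, 3 to 6 and 9 to 35. On unfiltered log2(FPKM + 1) they were 1423 in all and 12 relatives, at an adjusted p under 0.01 they were 1227, 3 and 12, and with a fold of at least 1.5 they were 1103 in all and 9 relatives. Same-numbered libraries did not deviate together in every pair (r of -0.0592, 0.153 and 0.098), and not every library correlated best with its own number. The r of 0.153, for the replicates numbered 2, was the largest of all pairs. With 3 libraries per group these correlations cannot show whether the numbers pair the libraries. The replicate block called 2139 genes, 4 members and 20 relatives, Sgpl1 (adjusted p = 0.0706) and Gpr132 (0.0611) losing their calls. Counts were lowest for Plpp1, Mfsd2b and the receptors that were not tested, which limits what their values can show.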
